A study of Mus musculus with 12 samples.

Results

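Lymphatic endothelial cells (LECs) of mouse lungs that had seen no cigarette smoke were profiled in 5 of the 12 libraries of the series, those whose treatment label is Room Air (RA). The label alone chose them, with no contrast, and the question asked of them was which genes an unexposed lung LEC expresses most, by function, and how far the libraries agree. The other 7 libraries came from mice exposed to cigarette smoke (CS) and enter only where a library-wide value of the RA samples is set against them. All 12 libraries came from Prox1-EGFP mice, a reporter line in which regulatory sequence of Prox1 drives GFP, and held cells sorted as positive for GFP and the endothelial surface protein CD31 and negative for the epithelial protein EpCAM and a panel of blood lineage proteins. Exposure to smoke or room air began at 6 weeks of age and lasted 8 weeks (acute, 8wk in the labels) or at least 24 weeks (chronic, Aged in the labels). The RA libraries are acute RA F and acute RA M, 1 female and 1 male, and chronic RA M1, chronic RA M2 and chronic RA F, 2 males and 1 female. The acute libraries were pools of cells from 2 to 5 mice and the chronic libraries were not pooled, so the time point, the pooling and, as the depths show, the sequencing depth cannot be told apart in this design. A library of sorted cells is a bulk sample, in which fewer cells of a type and less RNA per cell cannot be told apart.

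LECs line the lymphatic vessels, which drain fluid, protein and leukocytes from the tissue back to the veins. The transcription factor Prox1 sets and keeps lymphatic identity, and the receptor VEGFR3, the product of Flt4, carries the growth signals of VEGF-C and VEGF-D. In the lung the initial lymphatic capillaries lie along airways and vessels and have discontinuous junctions through which fluid enters, while larger collecting vessels carry valves and a more closed lining. LECs also take up material from lymph through scavenger receptors and guide leukocytes with chemokines and adhesion molecules.

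The RA libraries held 32858543 to 56998590 read counts, with the acute libraries at 51868956 or more and the chronic libraries at 36499108 or less. Levels of different genes were compared as TPM (a length-scaled transcript abundance), in which each count is divided by the length of the gene's merged exons and the library is scaled to the same total. Levels of 1 gene between libraries were also compared as CPM (the count as a share of the library), scaled with the TMM factors of edgeR. Genes are listed by their mean level, and where neighbours in such a list changed places between libraries the list is not an order. Values of the 5 libraries are given throughout in the order acute RA F, acute RA M, chronic RA M1, chronic RA M2 and chronic RA F.

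The sorted cells carried the genes that define LECs. Mmrn1 (ENSMUSG00000054641, chromosome 6 of GRCm38 from 60924976 to 60989378), a secreted multimerin, was at 4305, 4676, 6346, 5766 and 5676 TPM (5354 ± 839; SD, n = 5). Flt4 was at 1201, 1369, 1806, 1790 and 1728 TPM (1579 ± 276). Prox1 was at 971.8, 1046, 770.8, 714.7 and 852.3 TPM (871.2 ± 137.6). All 3 were high in every library, with the chronic libraries all above the acute ones for Mmrn1 and Flt4 and all below them for Prox1. Lyve1, the hyaluronan receptor of lymphatic capillaries, was at 552.1, 650.6, 1831, 1818 and 1169 TPM, which left the chronic libraries all above the acute ones, and was the least even of the lymphatic markers above 100 TPM. Pdpn, which codes for the membrane glycoprotein podoplanin, was at 336, 335.1, 463.6, 466.4 and 409.7 TPM. An antisense gene lies within the bounds of Prox1, as given below, and its reads and those of Prox1 cannot be told apart.

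Of 18 genes listed as lymphatic endothelial markers, 15 had a mean of 100 TPM or more and 5 of 1000 TPM or more, against 8.92% of all 21883 nuclear protein-coding genes at 100 TPM or more. Over all of these genes 40% had a mean of 10 TPM or more and the median was 2.94 TPM, which is the background for the counts of the lists that follow. Beyond the genes above, these included Fxyd6, a regulator of the sodium pump, at 1375 ± 107 TPM, the prothrombinase-like protein gene Fgl2 at 1123 ± 238 TPM, and Tbx1, a T-box transcription factor of lymphatic growth, at 826.6 ± 73.9 TPM. The co-receptor for VEGF-C, Nrp2, was at 482 ± 59.1 TPM, Itga9, the integrin subunit of lymphatic valves, at 409.6 ± 79.0 TPM, and Reln, which codes for the secreted glycoprotein reelin, at 184.1 ± 32.6 TPM. Mmrn1 lay above Flt4 in all libraries with ranges that did not overlap, while Flt4 and Fxyd6, Fxyd6 and Lyve1, Lyve1 and Fgl2, Fgl2 and Prox1, and Prox1 and Tbx1 changed order between libraries. The lowest members of the list were Ackr4, a scavenger of chemokines, at 5.63 ± 5.59 TPM and the LEC chemokine gene Ccl21a at 1.53 ± 0.57 TPM. Of the 50-base windows in the exons of Ccl21a, 71.6% also occur elsewhere in the annotated transcripts, and since the counting kept only reads that map to 1 place, its level is uncertain.

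All 24 genes of a general endothelial list were at 10 TPM or more on average, and 17 at 100 TPM or more. Cldn5, the claudin of endothelial tight junctions, was at 5290, 5429, 6151, 5794 and 6003 TPM (5733 ± 367), and S1pr1, the receptor for sphingosine 1-phosphate, at 1199, 1070, 1301, 1308 and 1201 TPM. Below S1pr1 and in no fixed order among the libraries came Kdr, the gene of VEGFR2, at 965.8 ± 39.5 TPM, Egfl7 at 957.4 ± 128.4 TPM, Ecscr at 953.6 ± 49.5 TPM and the orphan receptor gene Tie1 at 951.2 ± 69.3 TPM. Pecam1, which codes for the CD31 used in the sort, was at 537.1 ± 77.5 TPM and the cadherin gene Cdh5 at 226.6 ± 42.8 TPM. Nos3, the endothelial nitric oxide synthase gene, was the lowest of the list at 12.9 ± 3.0 TPM.

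Of 15 genes listed as markers of blood endothelium, 10 were at 10 TPM or more on average, 3 at 100 TPM or more and none under 1 TPM, with a median of 22.9 TPM. The 3 highest were Aqp1, a water channel, at 6129, 6811, 8421, 9338 and 9679 TPM (8075 ± 1555), Plvap, the protein of the diaphragms of caveolae and fenestrae, at 3898, 5446, 4481, 4578 and 4697 TPM (4620 ± 555), and Gpihbp1, the carrier of lipoprotein lipase, at 222.3 ± 42.3 TPM. Aqp1 and Plvap were thus among the most abundant mRNAs in every library. Next came the capillary markers Ly6c1 at 71.8 ± 12.1 TPM and Car4, which is also listed for macrophages, at 67.3 ± 8.4 TPM, the endothelin receptor gene Ednrb at 55.7 ± 4.0 TPM, the arterial ephrin gene Efnb2 at 52.3 ± 7.6 TPM and Kit at 22.9 ± 3.3 TPM. Lower in the list, Vwf, the von Willebrand factor gene, was at 11.3 ± 1.7 TPM, Flt1, the gene of VEGFR1, at 4.05 ± 1.74 TPM, the arterial connexin gene Gja5 at 3.35 ± 2.37 TPM, the P-selectin gene Selp at 1.96 ± 0.89 TPM and the venular Ackr1 at 1.47 ± 1.82 TPM. The list summed to 10652, 12787, 13421, 14462 and 14861 TPM, most of it from Aqp1 and Plvap, against 12296 to 16865 TPM for the lymphatic list. The part of blood endothelial cells in these levels and in those of the general endothelial list was not tested.

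**Figure D1:**
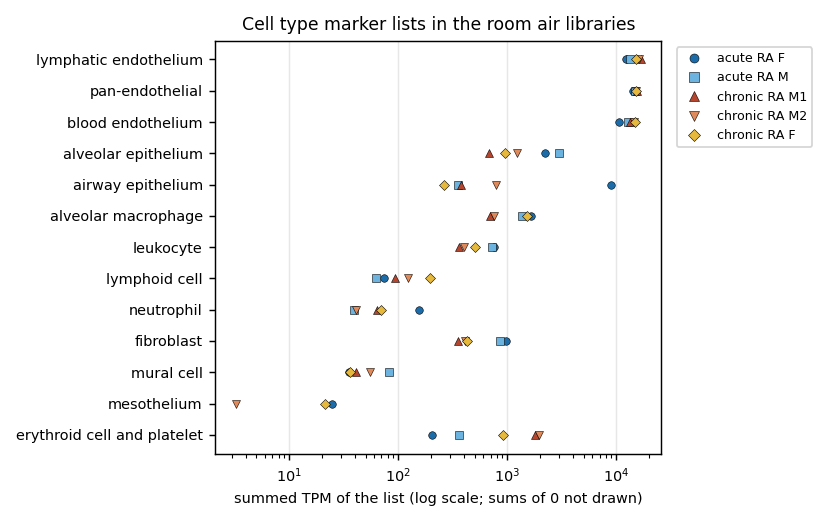
Summed TPM (log scale) of marker lists of cell types in the 5 RA libraries, 1 point per library. The lymphatic endothelium list sat between 12296 and 16865 TPM, while the airway epithelium list was at 8900 TPM in acute RA F and between 260.1 and 779.2 TPM in the others.

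RNA of other lung cells was present and uneven, and acute RA F stood apart. Over 102 markers of non-endothelial cells, the summed level was 14953, 6831, 4428, 5720 and 4904 TPM, against 12296, 13367, 16865, 16037 and 15218 TPM for the 18 lymphatic markers. Acute RA F was the highest, and most of its excess was Scgb1a1, the secretoglobin of airway club cells, at 8414, 26.77, 21.43, 282.4 and 16.94 TPM. Sftpc, the surfactant protein of alveolar type 2 cells, was at 1736, 2353, 528.8, 935.8 and 766.2 TPM, with both acute libraries above all chronic ones. Hbb-bs, a beta-globin gene of red cells, was at 89.25, 168.1, 780.7, 762.1 and 427.5 TPM, with the chronic libraries above the acute ones, and shares 53% of its windows with other transcripts. Lyz2, the lysozyme gene of macrophages, ranged from 258.3 to 894.6 TPM. The alveolar macrophage list summed to 1644, 1361, 695.9, 756 and 1527 TPM. Epcam, the gene of the epithelial protein used to remove cells, was between 0.608 and 2.44 TPM. Of 8 leukocyte markers 7 were at 10 TPM or more on average, with a list sum of 359.5 to 746 TPM. The highest of these was Fcer1g at 249.5 to 556.3 TPM, and the lowest was Ptprc, the gene of the leukocyte antigen CD45, at 2.21 to 3.93 TPM. Of 11 fibroblast markers 5 were at 10 TPM or more and 2 at 100 TPM or more, and the list summed to 349.3 to 966.1 TPM. These were led by Npnt at 154.5 to 398.1 TPM and Inmt at 107.3 to 406.4 TPM, while Col1a1 was between 1.73 and 9.31 TPM. The mural cell marker Rgs5 was at 0.23 ± 0.29 TPM, and the mesothelial list summed to 24.8, 0, 0, 3.23 and 21.2 TPM. By mean TPM, Scgb1a1 ranked 35 and Sftpc 62 among nuclear protein-coding genes, Scgb1a1 through acute RA F alone. The 100 most abundant genes by mean therefore include these epithelial genes. The part of these cells in the levels given for other genes was not tested.

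In every library 13734 genes reached 1 TPM, of which 11315 were nuclear protein-coding, and 7981, 1630 and 68 nuclear protein-coding genes reached 10, 100 and 1000 TPM in every library. No count at all was seen in any of the 5 libraries for 5531 of the 21883 nuclear protein-coding genes. The number of genes that together held 50% of the TPM was 739, 706, 623, 611 and 669 (669.6 ± 54.2), which was higher in both acute libraries than in the chronic ones. The most abundant feature of every library was Gm23935, an annotated miRNA of 57 bases whose windows all occur elsewhere, and it alone held 1.18, 1.48, 2.50, 2.30 and 2.19% of the TPM. The 100 most abundant genes of each library, this one included, held 23, 23.4, 26, 26.1 and 25% of its TPM (24.7 ± 1.43). By class, 93.6% of the TPM came from protein-coding genes (93.5 to 93.7% in the 5 libraries), 1.93% from ribosomal protein genes (1.81 to 2.04%) and 0.957% from the mitochondrial genome (0.846 to 1.13%). These classes overlap, as ribosomal protein genes and part of the mitochondrial genes are protein-coding. The median ribosomal protein gene shares 23.6% of its windows with other transcripts. For mitochondrially encoded genes the median is 0%, but mt-Co1 shares 51.1%. Only reads that map to 1 place were counted, so both shares are uncertain.

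**Figure D2:**
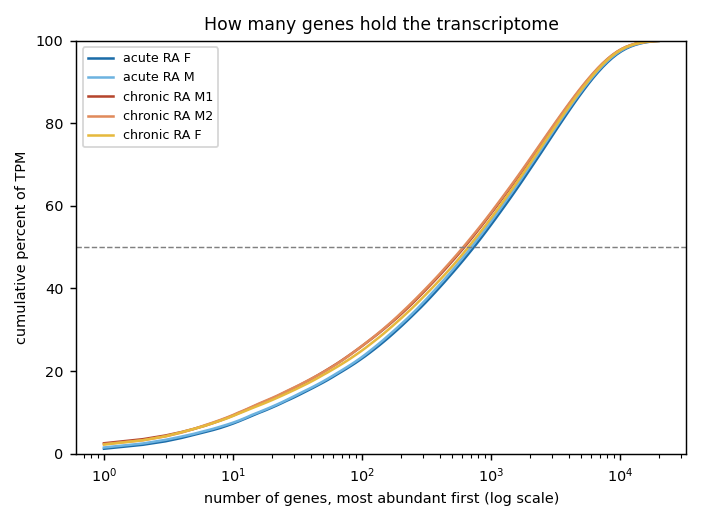
Share of all TPM (percent) held by the most abundant genes, against the rank of the gene in that library (log scale), with 1 line per RA library. The 10 most abundant genes held 7.27 and 7.49% in the acute libraries and 9.11 to 9.34% in the chronic ones, of which the first, Gm23935, made up 1.18 and 1.48% and 2.19 to 2.50%, and the lines reach 50% after 611 to 739 genes.

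The mRNAs at the head of the list were those of secreted proteins, the actin cytoskeleton, antigen presentation, water transport and the immediate early response. Selenop (ENSMUSG00000064373, chromosome 15 of GRCm38 from 3268547 to 3280508), the secreted carrier of selenium, was highest on average at 8165, 8835, 9030, 9369 and 9855 TPM (9051 ± 628) with merged exons as the length. Tmsb4x, thymosin beta 4, which binds actin monomers, was at 9590, 9692, 7804, 8507 and 8077 TPM (8734 ± 866). With the length of the principal transcript Tmsb4x was the higher of the pair, at 10707 TPM against 8480 TPM for Selenop, and likewise with the longest transcript, at 10671 against 9504 TPM. B2m, the light chain of MHC class I, was at 7674, 6320, 9921, 8778 and 10341 TPM (8607 ± 1648). These genes and Aqp1 changed places between libraries, with Tmsb4x ahead in both acute libraries, B2m in chronic RA M1 and chronic RA F, and Selenop in chronic RA M2. The next were Fos at 5285, 8003, 6893, 9308 and 6841 TPM (7266 ± 1496), the MHC class I heavy chain H2-D1 at 4989, 4563, 6973, 6913 and 7022 TPM (6092 ± 1211), Cldn5, and Dusp1, a phosphatase of MAP kinases, at 5230, 4681, 5610, 6035 and 5678 TPM (5447 ± 515). They were followed by Mmrn1 and by Ifitm3, an interferon-induced membrane protein, at 4874, 4820, 5551, 4800 and 4430 TPM. Among the 29 neighbouring pairs of the 30 most abundant nuclear protein-coding genes, only 1 had ranges that did not overlap over the 5 libraries, so the order within the 30 is mostly finer than the spread between libraries.

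Below these, between 2091 and 4737 TPM on average, came genes of several functions. Serinc3, a membrane protein of serine incorporation, was at 4579, 4770, 4818, 4749 and 3966 TPM, and Gng11, a gamma subunit of G proteins, at 5127, 4723, 4347, 4429 and 4133 TPM. Gng11 was thus highest in acute RA F and lowest in chronic RA F. Timp2, an inhibitor of matrix metalloproteinases, was at 3355 ± 150 TPM, Cst3, the protease inhibitor cystatin C, at 3165 ± 256.4 TPM, and Itm2b, an integral membrane protein, at 2935 ± 82 TPM. Fth1, the heavy chain of ferritin, was at 2697 ± 377 TPM, Ly6e, an interferon-induced surface protein, at 2428 ± 255 TPM, and Ubb, a ubiquitin gene with 48.0% of its windows shared with other transcripts, at 2393 ± 253 TPM. By CPM, which favours long mRNAs, the 10 highest genes were Mmrn1 (9223 ± 1816 CPM), Selenop, Aqp1, Dusp1, Serinc3, Fos, H2-D1, Ltbp4, Flt4 and Timp2. Flt4 was thus among the 10 highest by CPM at 3819 CPM but not among the 30 highest by TPM.

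**Figure D3:**
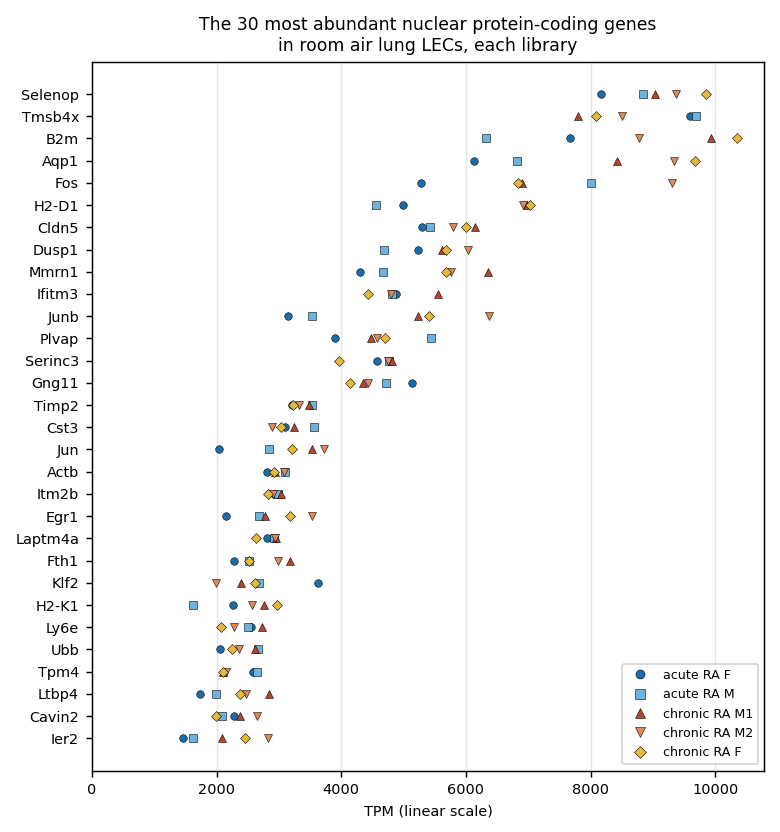
Level (TPM) of the 30 nuclear protein-coding genes with the highest mean over the 5 RA libraries, 1 point per library. The values run from Selenop (8165 to 9855 TPM) to Ier2 (1460 to 2825 TPM), and neighbouring genes overlap in all but 1 pair.

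The DNA before the start sites of a few of these genes is shown, with the share of genes that carry each of several core promoter motifs. No difference between sets was tested. The RefSeq table used (build GRCm38.p6) held a promoter for 75 of the 100 most abundant nuclear protein-coding genes and for 16478 of 21870 gene symbols, as 250 bases before to 50 bases after the annotated start. Over that window TATAAA, on either strand, was found in 21.3% of the abundant genes (16 of 75), in 8.51% of the genes at 1 TPM or more in every RA library and in 14.3% of all genes. CCAAT on either strand was found in 45.3, 43 and 42% of these sets, GGGCGG on either strand in 73.3, 70.1 and 51.1%, and CCGGAAGT on either strand in 1.33, 9.66 and 5.95%. A run of 5 or more pyrimidines from a C within 10 bases of the start was found in 34.7, 37.3 and 35.2%. None of these motifs contains another, the sets are nested, and a match is a description of the letters only. The 100 bases before the RefSeq start are printed for the lymphatic marker Flt4, the immediate early gene Fos, the MHC class I gene H2-D1 and the junction gene Cldn5, each 5′ to 3′ on the plus strand of the genome, which is the strand of the gene. Capitals mark TATAAA or CCAAT or GGGCGG on either strand, where CCAAT on the other strand reads ATTGG and GGGCGG reads CCGCCC.
Flt4 (chr11:49609579-49609678): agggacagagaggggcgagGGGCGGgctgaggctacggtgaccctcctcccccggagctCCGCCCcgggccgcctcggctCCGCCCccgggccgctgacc
Fos (chr12:85473790-85473889): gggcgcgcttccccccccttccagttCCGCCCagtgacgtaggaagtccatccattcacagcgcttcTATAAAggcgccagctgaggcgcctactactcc
H2-D1 (chr17:35262994-35263093): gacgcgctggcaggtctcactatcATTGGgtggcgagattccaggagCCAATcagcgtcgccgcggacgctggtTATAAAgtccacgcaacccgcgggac
Cldn5 (chr16:18776747-18776846): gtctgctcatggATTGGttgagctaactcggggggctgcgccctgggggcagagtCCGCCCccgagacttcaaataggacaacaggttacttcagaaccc

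In these stretches, counted back from -1 as the last base before the annotated start, Fos and H2-D1 carried TATAAA from -33 and from -26, and Flt4 and Cldn5 carried none. Flt4 carried GGGCGG at -81 and its complement CCGCCC at -41 and -20, Fos carried CCGCCC at -74, and Cldn5 carried ATTGG at -88 and CCGCCC at -45. For Flt4 and H2-D1 the GENCODE gene begins further upstream, at 49609263 and 35262730, so the stretch shown lies within its bounds. H2-D1 carried ATTGG at -76 and CCAAT at -53. Fos and H2-D1 were at 7266 and 6092 TPM on average, Cldn5 at 5733 TPM and Flt4 at 1579 TPM.

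Immediate early genes, which cells transcribe within minutes of a stimulus or of handling, held the largest mean share of the TPM among the lists of gene function, 3.22 ± 0.57% (SD, n = 5). Their summed level was 24620, 28934, 33147, 39765 and 34334 TPM, lowest in acute RA F and highest in chronic RA M2. In acute RA F the actin cytoskeleton list was slightly higher, at 24776 TPM. Of 24 listed genes, 18 were at 100 TPM or more and 8 were among the 100 most abundant. Junb, an AP-1 subunit like Fos, was at 3152, 3529, 5227, 6371 and 5408 TPM, and Jun at 2038, 2838, 3526, 3720 and 3217 TPM. Both were higher in all chronic libraries than in the acute ones. The zinc finger factor gene Egr1 was at 2155, 2675, 2774, 3525 and 3186 TPM and Ier2 at 1460, 1623, 2084, 2825 and 2463 TPM. Ccn1, a matricellular protein, was at 755.9, 1100, 2107, 2097 and 2198 TPM, and Btg2, an antiproliferative factor, at 777.2, 627.4, 1259, 1250 and 1305 TPM. Further down were the mRNA decay factor Zfp36 at 857.7 ± 259.3 TPM, Socs3 at 599.3 ± 121.8 TPM and Atf3 at 213.2 ± 86.6 TPM, while Fosl2 and Egr3 were at 9.40 ± 2.22 and 3.57 ± 1.15 TPM. Fos and Dusp1 were at 4681 TPM or more in every library, so the high level of this group did not rest on 1 library. The part of tissue digestion and sorting in this group was not tested.

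**Figure D4:**
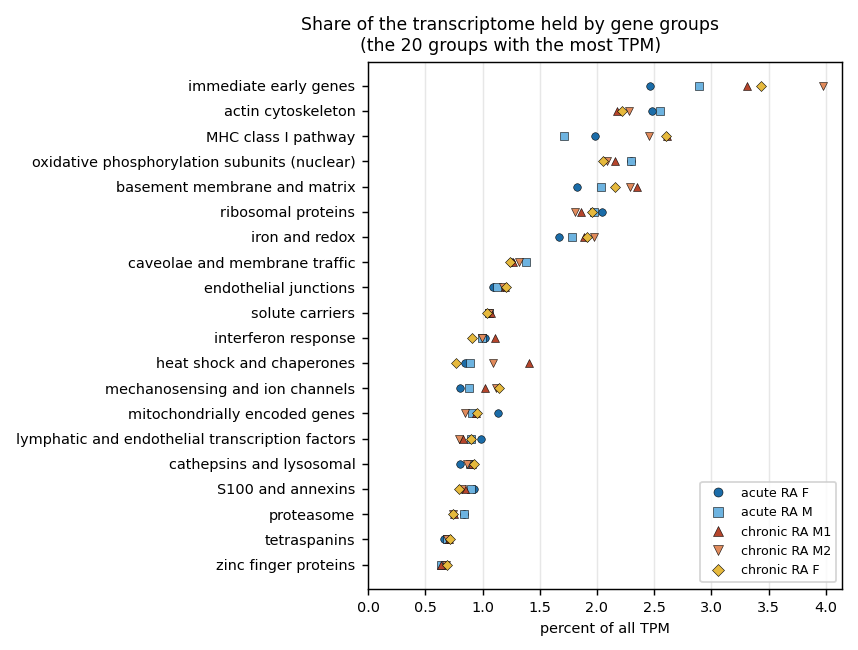
Share of all TPM (percent) held by the 20 gene groups of function with the most TPM, 1 point per RA library. Immediate early genes held the most on average (3.22%), followed by actin cytoskeleton genes (2.34%) and the MHC class I pathway (2.27%), and a gene can be in several groups.

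The actin cytoskeleton list held 2.34 ± 0.17% of the TPM, with all 29 genes at 10 TPM or more and 23 at 100 TPM or more. After Tmsb4x came Actb, cytoplasmic beta actin, at 2803, 3097, 2930, 3084 and 2923 TPM, and Tpm4, a tropomyosin, at 2578, 2655, 2104, 2157 and 2097 TPM. Actb was even across libraries and Tpm4 was higher in both acute libraries. The monomer-binding protein genes Pfn1 and Cfl1 were at 949.4 ± 148.9 and 809.1 ± 64.7 TPM. The alpha-actinin gene Actn4 was at 761.4 ± 77.0 TPM and its relative Actn1 at 19.1 ± 3.2 TPM, and the myosin light chain gene Myl9 was at 28.9 ± 9.5 TPM. Tuba1a, the most abundant tubulin gene at 1167 ± 104 TPM, shares 75.5% of its windows with other transcripts, and its level is uncertain.

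The MHC class I pathway held 2.27 ± 0.40% of the TPM, with summed levels of 19808, 17112, 26110, 24535 and 25985 TPM, and all 18 genes were at 10 TPM or more. Beside B2m and H2-D1, the heavy chain H2-K1 was at 2262, 1629, 2757, 2574 and 2976 TPM. The loading chaperone gene Tapbp was at 498.9 ± 56.1 TPM and the peptide transporter genes Tap2 and Tap1 at 176.5 ± 11.9 and 67.7 ± 17.2 TPM. The class I genes are near-identical in parts, and 12.8% of the windows of H2-D1, 9.63% of those of H2-K1 and 35% of those of H2-Q6 are shared with other transcripts. MHC class II genes were present at lower levels. Cd74, the invariant chain gene, was at 336, 354.3, 500.3, 504.8 and 773.5 TPM, H2-Ab1 at 263.6 ± 81.2 TPM and the class II activator gene Ciita at 2.92 ± 1.59 TPM. Cd74 was highest in chronic RA F. The lymphoid cell list, at 73.8, 62.7, 92.6, 123.6 and 194.6 TPM in sum, and the B cell marker Cd79a, at 4.18 to 39.0 TPM, were highest in the same library. The part of lymphoid cells and macrophages in the class II levels was not tested.

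Interferon response genes held 1.01 ± 0.07% of the TPM, most of it from Ifitm3, Ly6e and Bst2, a surface protein that tethers virus particles (1315 ± 123 TPM). Of 20 genes, 17 were at 10 TPM or more and 8 at 100 TPM or more. The guanylate-binding protein gene Gbp2 was at 146.3 to 207.1 TPM, the transcription factor gene Irf1 at 156.1 ± 14.8 TPM and the ubiquitin-like Isg15 at 124.6 ± 16.2 TPM. Lower in the list were Ifit1 at 38.3 ± 11.7 TPM, Rsad2 at 15.1 ± 3.7 TPM and Mx1 at 0.92 ± 0.58 TPM.

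The basement membrane and matrix list held 2.13 ± 0.21% of the TPM, with 22 of 36 genes at 100 TPM or more. Its upper members were secreted regulators and not fibrous collagens. After Mmrn1 and Timp2 came Ltbp4, which binds latent TGF-beta, at 1732, 1995, 2848, 2476 and 2381 TPM, the insulin-like growth factor binder Igfbp4 at 1708 ± 152 TPM, Timp3 at 1377 ± 152 TPM and the matricellular Sparc at 1620, 1695, 1097, 1231 and 1142 TPM. Ltbp4 was higher and Sparc lower in all chronic libraries. Of 44 collagen genes only 4 reached 100 TPM: Col23a1, a transmembrane collagen, at 363 TPM on average (246.9 to 536.7), the basement membrane chains Col4a1 and Col4a2 at 285 ± 66 and 134.2 ± 26.0 TPM, and Col18a1 at 159.9 ± 53.0 TPM. Of 11 laminin genes the highest were Lama4 at 299.7 ± 26.2 TPM, Lamb2 at 208.3 ± 5.7 TPM and Lamc1 at 115 ± 20 TPM, which are chains that can form 1 laminin trimer. Fn1, the fibronectin gene, was at 12.4 ± 4.4 TPM. Among integrins, Itgb1 was at 863.4 TPM on average (809.3 to 931.7), Itga9 was next, and Itga5 was at 154.4 TPM (133.2 to 168.1).

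Junction genes held 1.16 ± 0.05% of the TPM. Of 23 claudin genes Cldn5 was the only one above 100 TPM, and the next, Cldn12, was at 18.5 TPM (14.5 to 21.3). F11r, the gene of the adhesion molecule JAM-A, was at 1453 ± 99 TPM, the connexin genes Gja1 and Gja4 at 745.8 ± 86.1 and 240.2 ± 90.7 TPM, and the plakoglobin gene Jup at 411.6 ± 43.1 TPM. The occludin gene Ocln was at 3.16 ± 2.40 TPM and the cingulin gene Cgn at 0.42 ± 0.70 TPM. Among 23 cadherins only Cdh5 reached 100 TPM, and Cdh4, the next, was at 11.7 TPM (9.67 to 14.8).

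Caveolae and membrane traffic genes held 1.29 ± 0.06%, with 16 of 17 genes at 100 TPM or more. Cavin2 and Cavin3, coat proteins of caveolae, were at 2276 ± 257 and 1073 ± 151 TPM, Cav1, the main caveolin of endothelium, at 1024, 1011, 1053, 1031 and 1070 TPM, Cav2 at 541.6 ± 37.8 TPM and Cavin1 at 305.3 ± 28.3 TPM. Cav1 was among the most even of the abundant genes. Of the water and ion channel list only Aqp1, Clic1 (719.9 ± 99.0 TPM), Clic4 (322.3 ± 26.9 TPM) and Kcnj8 (317 ± 47 TPM) reached 100 TPM. The mechanosensitive channel genes Piezo1 and Trpv4 were at 57.3 ± 8.7 and 50.9 ± 9.6 TPM.

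Among receptors of growth and guidance, Flt4 lay above Kdr, with ranges that did not overlap, and Kdr and Tie1 could not be ordered, since Kdr was higher in 3 of 5 libraries. Tie1 lay above Nrp2 without overlap, Nrp2 and the guidance receptor gene Robo4 (427.8 ± 25.7 TPM) overlapped, and Robo4 lay above Tek, the gene of the angiopoietin receptor TIE2, at 274.7 ± 27.1 TPM. Unc5b was at 115 ± 13 TPM. Nrp1, the relative of Nrp2, was at 14.4 ± 3.6 TPM and Flt1 lower still. Of the ligands, Efna1, a membrane-bound ephrin, was the most abundant at 1218 ± 215 TPM, followed by Pgf, placental growth factor, at 520.5 ± 118.8 TPM, the semaphorin gene Sema3f at 451.2 ± 108.0 TPM, the Notch ligand gene Dll4 at 345.9 ± 23.6 TPM, Tgfb3 at 294.7 ± 29.5 TPM and Angpt2, a ligand of TIE2, at 231.8 ± 58.5 TPM. Vegfc and Vegfd, which code for the ligands of VEGFR3, were at 4.58 ± 3.32 and 2.90 ± 1.77 TPM. Tgfbr2, a receptor for TGF-beta, was at 807.8, 943.5, 1354, 1389 and 1304 TPM and was higher in all chronic libraries.

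Scavenger and hyaluronan receptors held 0.332 ± 0.042% of the TPM, with 7 of 17 genes at 100 TPM or more. After Lyve1, these were led by Stab1, a scavenger receptor, at 591.5 to 650.8 TPM (626.9 ± 23.7), Scarf1 at 523.1 ± 69.4 TPM, the mannose receptor gene Mrc1 at 326.9 ± 37.4 TPM, the lipid receptor gene Cd36 at 223.7 ± 51.0 TPM and Stab2 at 196.6 ± 69.3 TPM. Mrc1 is also a macrophage gene. Of the other alveolar macrophage markers, Lyz2 was at 633.4 ± 313.2 TPM, Chil3 at 90.9 ± 74.3 TPM, Marco at 8.11 ± 11.9 TPM and Siglecf at 1.33 ± 1.68 TPM, and the part of macrophages in the level of Mrc1 was not tested. Of 28 cathepsin and lysosomal genes 14 were at 100 TPM or more, while 6 were under 1 TPM and 4 of these were listed at 0. The highest were the protease gene Ctsd at 1726 TPM (1586 to 1871), the sphingolipid activator gene Psap at 1674 TPM (1446 to 1870) and Lamp1 at 1120 TPM (1018 to 1214). Among G protein-coupled receptors, S1pr1 was followed by the receptor partner Ramp2 at 639.7 ± 75.8 TPM, the chemokine scavenger Ackr2 at 449.5 ± 58.3 TPM, and by the thrombin receptor gene F2r at 303 ± 74 TPM and Gpr182 at 253.2 ± 38.7 TPM, which changed order between libraries.

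Chemokines held 0.0235 ± 0.0033% of the TPM over 24 genes, of which 8 were at 10 TPM or more and none at 100 TPM, with a median of 4.60 TPM. Cxcl12 at 38.2 ± 6.5 TPM, Ccl6 at 35.5 ± 22.7 TPM and Ccl2 at 33.2 ± 12.9 TPM had the highest means and changed order between libraries. The level of the LEC chemokine gene Ccl21a is uncertain, as given above, so these values may miss part of the chemokine mRNA. Adhesion receptors for leukocytes were led by Icam2 at 670.5 ± 66.2 TPM, while Icam1 was at 69.6 ± 17.2 TPM, Vcam1 at 5.21 ± 1.89 TPM and the E-selectin gene Sele at 1.64 ± 0.53 TPM.

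Among 22 coagulation and fibrinolysis genes, 8 were at 100 TPM or more and 5 under 1 TPM. Pros1, the anticoagulant protein S gene, was at 701.6 ± 29.4 TPM, Thbd, the thrombomodulin gene, at 459.6 ± 87.2 TPM, Procr, the protein C receptor gene, at 167.8 ± 37.6 TPM and Tfpi, the tissue factor pathway inhibitor gene, at 85.7 ± 6.4 TPM. S100a10 and Anxa2, which form a surface receptor for plasminogen, were at 985.8 ± 116.5 and 790.4 ± 91.9 TPM. The other genes of the list at 100 TPM or more were F2r, the thrombospondin gene Thbs1 at 301.2 ± 108.3 TPM and the urokinase receptor gene Plaur at 188.2 ± 11.6 TPM. The plasminogen activator genes Plau and Plat were at 36.3 ± 12.8 and 13.4 ± 2.0 TPM, and F3, the tissue factor gene, at 1.92 ± 1.09 TPM. F8, the gene of clotting factor VIII, was at 75.9 ± 9.4 TPM. The highest level of F3 in any RA library lay below the lowest level of Plat (10.7 TPM).

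In the list of lymphatic and endothelial transcription factors, Klf2, which responds to flow, was highest at 3624, 2679, 2392, 1994 and 2614 TPM, with acute RA F highest and chronic RA M2 lowest. Sox18, a regulator of lymphatic fate, was at 959.4, 1034, 1059, 1227 and 1282 TPM (1112 ± 136). Prox1, in no fixed order with Sox18 or Tbx1, and Tbx1 came next in that list, then the Notch target gene Hes1 at 503.1 ± 85.2 TPM, Meox1 at 391.3 ± 42.4 TPM and Bcl6b at 339.5 ± 76.1 TPM. Nfatc1 and Foxc2, factors of lymphatic valves, were at 135.5 ± 13.3 and 54.2 ± 7.6 TPM, Gata2 at 69.7 ± 9.5 TPM, and Nr2f2, the venous and lymphatic factor COUP-TFII, at 91.3 ± 12.3 TPM. The arterial factor gene Hey2 was at 0.18 ± 0.22 TPM. In the ETS family Elk3 was highest at 633.3 ± 71.9 TPM, followed by Ets2 and Ets1 at 291.6 ± 41.6 and 252.2 ± 14.8 TPM. Of 13 T-box genes Tbx1 was the only one above 100 TPM, and Tbx2, the next, was at 17.9 ± 4.5 TPM. HOX genes were led by Hoxd9 at 99.3 TPM (76.6 to 126.4) and Hoxd8 at 95.2 TPM (78.0 to 120.4), which changed order between libraries, followed by Hoxa7 at 63.6 TPM (54.8 to 69.5) and Hoxa5 at 42.1 TPM (35.6 to 49.1), while 19 of 39 had no count in any RA library.

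The iron and redox list held 1.84 ± 0.12% of the TPM, most of it from Selenop and Fth1. Txnip, an inhibitor of thioredoxin, was at 1661 ± 222 TPM and the glutathione peroxidase gene Gpx1 at 942.7 ± 20.8 TPM, but Gpx3, its secreted relative, ranged from 348.5 to 868.3 TPM. Tfrc, the transferrin receptor gene, was at 1.41 ± 0.86 TPM and the iron exporter gene Slc40a1 at 23.2 ± 6.6 TPM. Nuclear subunits of oxidative phosphorylation held 2.18 ± 0.12%, with 63 of 85 genes at 100 TPM or more, and were led by Cox6a1 at 1292 TPM (1197 to 1367). Of the mitochondrially encoded genes, mt-Cytb was highest at 2748, 2232, 2218, 2027 and 2226 TPM, followed by mt-Rnr2 at 1822 ± 148 TPM, and then by mt-Co1 at 1572 ± 189 TPM and mt-Nd1 at 1555 ± 242 TPM, which changed order between libraries. Glycolysis held 0.214 ± 0.012%, with Aldoa at 549.6 ± 47.9 TPM and Gapdh at 230.2 ± 13.4 TPM. The glucose transporter genes Slc2a1 and Slc2a3 were at 23.5 ± 5.8 and 2.54 ± 1.33 TPM. Fatty acid genes held 0.162 ± 0.007%, led by the oxidation enzyme genes Acadl at 257.7 ± 21.4 TPM and Acaa2 at 243.6 ± 19.3 TPM. Of 21 cell cycle genes 11 were at 10 TPM or more and none at 100 TPM, with a median of 12.1 TPM. Mki67 was at 1.9 TPM and Cdk1 at 2 TPM on average, and Pcna, which also serves in DNA repair, was at 91.4 ± 13.9 TPM.

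Agreement between the RA libraries was high and somewhat closer among the chronic ones. Over the genes past the filter on low counts, Pearson's r of log2 CPM was 0.941 to 0.961 in the 10 pairs of RA libraries (median 0.948). It was 0.947 between the acute libraries, 0.956 to 0.961 among the chronic ones and 0.941 to 0.949 between the time points. Over the 35 pairs of an RA and a CS library it was 0.887 to 0.951 (median 0.921). These correlations run across genes, which are not independent, and pairs share libraries, so they carry no test. Any pair of RA libraries shared 82 to 94 of its 100 most abundant genes, and 77 genes were among the 100 of all 5. An RA and a CS library shared 57 to 92 (median 84), against a median of 88 for the pairs of RA libraries.

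The spread of single genes was small for most abundant genes. Over all genes past the filter, the median absolute log2 difference in CPM between pairs of RA libraries was 0.277 to 0.423. The root mean square of that difference was 1.057 to 1.305. For the 2002 genes with a mean of 100 TPM or more, the SD of log2(TPM + 1) over the 5 libraries had a median of 0.140, and for 1673 of them (83.6%) it was under 0.25. The smallest spreads were those of Atraid (234.2 to 240.6 TPM), Cnpy2 (215.9 to 222.6 TPM), Park7 (194.1 to 200.8 TPM), Ncaph2 (113.3 to 117.4 TPM) and Ppp2r1a, a scaffold subunit of a phosphatase (338.2 to 349.9 TPM). The SD was 1 or more for 11 genes. After Scgb1a1, the largest spread was that of Itm2a, an integral membrane protein, at 3.42, 3.04, 432.7, 251.3 and 327.4 TPM, which separated the time points. Tagln3, a transgelin, was at 94.3, 3.35, 123.1, 186.8 and 172.9 TPM, low in acute RA M alone. Hspa1b, the inducible heat shock protein gene, was at 51.9, 355, 2172, 221.2 and 197.5 TPM, high in chronic RA M1, and shares 62.3% of its windows with other transcripts. Hba-a1, an alpha-globin gene, was at 59.6, 81.9, 666.1, 770.2 and 316.7 TPM.

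Between the time points, no gene passed edgeR's quasi-likelihood test at an adjusted p under 0.05 when all 12 libraries set the spread. Of 21440 genes tested, 0 (0%) were called, 1504 had an unadjusted p under 0.05, and the smallest adjusted p was 0.0693, for Trim12a. DESeq2 called 253 genes, 199 higher and 54 lower in chronic RA. With edgeR on the 5 RA libraries alone, which lets only their own spread count, 42 of 18368 genes (0.229%) were called, 38 higher and 4 lower in chronic RA. In that fit Cd300lg, a mucin-like endothelial receptor, was at 2.74, 2.33, 66.4, 63.1 and 73.1 CPM (log2 fold change 4.73, SE 0.16, adjusted p = 0.00084 from edgeR). Itm2a was at 1.64, 1.49, 227.9, 134.2 and 168.6 CPM (log2 fold change 6.81, SE 0.31, adjusted p = 0.00237 from edgeR). Prelp, a matrix proteoglycan, was at 460.9, 517.6, 1108, 1082 and 1072 CPM (log2 fold change 1.14, SE 0.08, adjusted p = 0.0267 from edgeR). For each of these genes all chronic libraries lay above both acute libraries, but in the fit of 12 libraries their adjusted p was 0.155, 0.623 and 0.479. Trim12a, of the tripartite motif family, was at 0.0338, 0.227, 48.0, 63.9 and 31.6 CPM. Of the same family, Trim30d was at 0.0338, 0.0189, 25.2, 14.5 and 8.80 CPM and was called as well. So was Trim5, at 0.2365, 0.227, 5.56, 7.99 and 3.95 CPM, which shares 36.6% of its windows with other transcripts. The gene 4930481A15Rik was listed at 0 in both acute libraries and at 5.01, 7.96 and 7.05 CPM in the chronic ones.

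The genes lower in chronic RA in the fit of 5 libraries were Npnt, a matrix protein of epithelium and fibroblasts, at 549.4, 548.3, 244.7, 273.4 and 229.2 CPM, the nuclear RNA Malat1 at 2314, 2070, 917.1, 1087 and 1059 CPM, the leukocyte gene Fcer1g at 132, 137.2, 65.9, 75.2 and 70.5 CPM and the cyclin gene Ccnd2 at 185.3, 181.1, 116.1, 109.5 and 113.6 CPM. Of the 100 most abundant genes, 4 were called in it. These were H2-D1 at 3533, 3320, 5431, 5459 and 5346 CPM (log2 fold change 0.65, SE 0.06, adjusted p = 0.0333 from edgeR), Btg2 (0.96, SE 0.10), Pard6g, a cell polarity gene (0.57, SE 0.07), and Fgl2 (0.68, SE 0.08), all higher in chronic RA. The 100 were chosen by the mean over the same libraries, more of them chronic than acute, which favours genes higher in chronic RA. Cdh5 was called as well, at 209.4, 211.5, 326.4, 328 and 324.3 CPM.

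**Figure D5:**
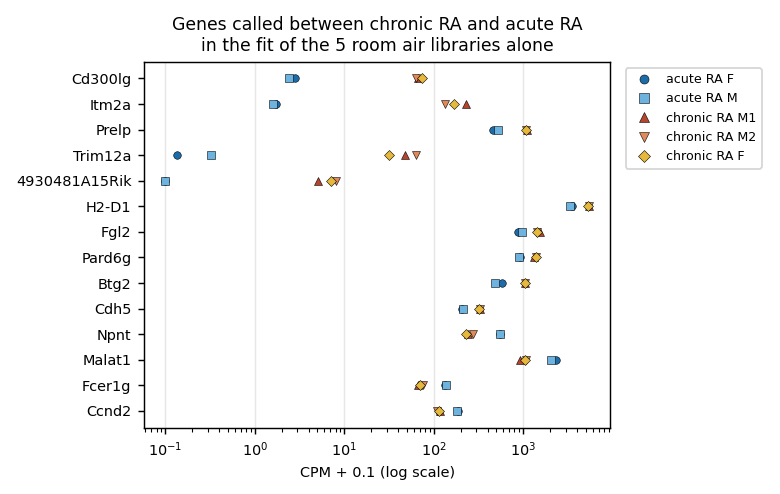
Level (CPM + 0.1, log scale) in the 5 RA libraries of genes called between chronic RA and acute RA when only these libraries were fitted, 1 point per library. Cd300lg sat near 2.5 CPM in acute RA and at 63.1 to 73.1 CPM in chronic RA, and Npnt, Malat1, Fcer1g and Ccnd2 were lower in chronic RA.

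Counted without a test, all 3 chronic libraries lay above both acute libraries for 3793 of 21404 genes (17.7%) and below both for 3644 (17%). Of the 100 most abundant genes, 45 lay above and 9 below. These 100 were chosen by the mean over the same 5 libraries, 3 of them chronic. That choice favours genes higher in chronic RA, so the 2 counts cannot be read against the share over all genes. Of the 18 genes of the MHC class I pathway, 12 lay above and 0 below, with a median log2 fold change of 0.38 against 0.00 over all genes. All 7 MHC class II genes lay above (median 0.81). Of 36 basement membrane and matrix genes 20 lay above and 4 below (median 0.41), of 22 iron and redox genes 13 and 2 (median 0.17), and of 24 immediate early genes 11 and 4 (median 0.33). Other lists had more genes below than above, with 12 below and 6 above of 29 actin cytoskeleton genes, 8 and 2 of 20 ETS factors and 27 and 18 of 84 ribosomal protein genes, each with a median of -0.04. No gene of these lists was called in the fit of 12 libraries. Of the lists of other cells, in which no gene was called in the fit of 12 libraries, 9 of 14 alveolar epithelial and 8 of 11 fibroblast genes lay below (medians -1.18 and -1.25), 7 of 9 red cell and platelet genes lay above (median 2.35), and of 12 lymphoid cell genes 4 lay above and 1 below (median 1.03). None of 10 airway epithelial and 8 neutrophil genes lay above or below, and of 14 alveolar macrophage, 8 leukocyte and 10 mural cell genes 2, 2 and 1 lay below and 0, 0 and 1 above. The B cell gene Ighd was among the genes called in the fit of 5 libraries (log2 fold change 2.44, SE 0.29, adjusted p = 0.0478 from edgeR). The part of these cells, of pooling and of depth in the differences between the time points was not tested.

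Between the sexes, with the time point as a covariate, 5 of 18368 genes (0.0272%) passed edgeR's test at an adjusted p under 0.05. The Y-linked genes Kdm5d, Uty and Eif2s3y were higher in males, and Xist, the RNA of the inactive X chromosome, was higher in females. Xist was at 88.4 and 60.4 CPM in acute RA F and chronic RA F and at most 0.230 CPM in the males, and Kdm5d was listed at 0 in both females and at 29.7 to 32.3 CPM in the males, so the sex labels and these genes matched in all 5 libraries. The remaining gene, Gm11127, was at 25.4 and 28.6 CPM in the females and at most 0.173 CPM in the males, and shares 78.3% of its windows with other transcripts. An unadjusted p under 0.05 was found for 856 genes, and DESeq2 called 78. Without chronic RA M2 no gene was called, and without chronic RA M1 1 gene was called.

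Between the RA and the 7 CS libraries, none of 6 differences in library-wide values passed an adjusted p of 0.05. The tests were exact two-sided permutation tests within time points, which enumerate 336 assignments and cannot go below p = 0.00298. The summed level of the markers of other cells was 7367 ± 4337 TPM in room air and 21282 ± 17987 TPM in smoke (SD, n = 5 and 7; exact permutation p = 0.0149, adjusted p = 0.0893 over 6 tests). The share of mitochondrially encoded genes was 0.957 ± 0.107% and 1.51 ± 0.52% (exact permutation p = 0.0595, adjusted p = 0.161), and the summed level of the lymphatic markers was 14757 ± 1889 and 12510 ± 4631 TPM (exact permutation p = 0.0804, adjusted p = 0.161). By time point the means of that sum were 12832 TPM in acute RA and 6522 TPM in acute CS, and 16040 TPM in chronic RA and 14906 TPM in chronic CS. For the markers of other cells they were 10892 and 38959 TPM in the acute and 5017 and 14211 TPM in the chronic libraries. The share of the 100 most abundant genes, the number of genes holding 50% of the TPM and the share of ribosomal protein genes had exact permutation p of 0.881, 0.741 and 0.694. The spread over CS libraries was wider than over RA libraries for the markers of other cells, which ranged from 8055 to 59755 TPM in smoke and from 4428 to 14953 TPM in room air.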

How the data were processed

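RNA of sorted lung LECs was sequenced from SMART-Seq v4 libraries. The authors deposited read counts per Ensembl gene, without normalization, which they made by quality checks with FastQC 0.11.9, trimming with Skewer, alignment to GRCm38/mm10 with STAR and its GeneCounts mode, which counts reads that map to 1 place. FastQC and STAR are also named in the submitters' processing notes. Which annotation release they used, and whether counting kept the strand, is not given in the sources used here, so a gene and an antisense partner cannot be told apart.

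Groups, sex and replicate came from the labels. Nothing says that all samples came from separate animals, so p-values measure the spread between these samples. Of 52636 identifiers, 52489 were found in GENCODE M21, whose merged exons gave the lengths for TPM. CPM used TMM factors, and log2 CPM a prior count of 2. Each gene's uncertainty from near-identical copies was taken as the percent of its 50-base windows found in other transcripts. A floor of 3 counts was 0.0526 to 0.0913 CPM in the RA libraries, and covers counting error only.

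The time points were compared with edgeR 4.0.16 (R 4.3.3) in a quasi-likelihood fit of all 12 libraries by group, the sexes in a fit of the 5 RA libraries with time, and library-wide values by exact permutation (Python 3.11.15). DESeq2 1.42.0 was an alternative. Adjusted p-values follow Benjamini-Hochberg. The code was tested on simulated data. The genes named were the 30 nuclear protein-coding genes highest by TPM, the 5 highest mitochondrial and noncoding genes, the 10 highest by CPM, Prox1, Flt4, Pdpn, Lyve1 and Mmrn1, up to 6 members of each list or family with the lowest of cell type lists, the 5 most and 5 least even genes at 100 TPM or more, and the 5 called genes per direction with the smallest p. Further list members, and the genes called only in the fit of 5 libraries, were named after their values were seen. A few genes set by this rule are not reported here. The lists and genes were chosen with earlier results of these data known. Genes are listed by mean level, and an order of 2 genes was taken as fixed only where it held in all 5 libraries.

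The alternatives were other transcript lengths, CPM or FPKM for TPM, unique windows, TPM without mitochondrial or short genes, other TPM minimums, DESeq2 and its size factors, no filter, sex as a covariate, other sets of libraries and leaving out each library. No sample was left out of the main results.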

Additional observations from a re-analysis of the deposited data

Results flagged for a closer look

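In 52 library-wide values, list sums and gene levels, the highest or lowest of the 5 RA libraries was compared with the others by Dixon's criterion (gap over range above 0.71), which chance passes in about 1 in 20 groups, and 4 passed. The summed level of the markers of other cells was 14953 TPM in acute RA F and 4428 to 6831 TPM in the other libraries. The airway epithelium list, a part of that sum, was at 8900 TPM in acute RA F and at 260.1 to 779.2 TPM in the others. The neutrophil list was at 155.1 TPM in acute RA F and at 38.9 to 69.5 TPM in the others. Serinc3 was at 3966 TPM in chronic RA F, below the 4579 to 4818 TPM of the others.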

How the results depend on the processing

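No paired analysis was possible because acute RA and chronic RA share only the label F, which names a sex and not a pair. The levels of 173 (longest transcript), 215 (principal transcript), 257 (CPM) and 327 (FPKM scaled by TMM factors) of the 356 named genes, and of 106 of 355 with unique windows, moved by more than 1 SD. The share of ribosomal protein genes was 2.20% with the longest transcript, 2.52% with the principal transcript, 3.01% with unique windows and 0.912% by CPM, and that of mitochondrially encoded genes 0.737, 0.657, 1.11 and 0.342%. The 100 most abundant genes of each library held 22.8, 22.1 and 18.9% with the longest transcript, the principal transcript and CPM. By CPM the lymphatic markers summed to 26155 CPM and the markers of other cells to 3234 CPM, and 65 of the 100 most abundant genes were the same. A minimum of 10 TPM in every library left 8425 genes. The median r was 0.959 over all genes with a count, 0.969 on log2 TPM and 0.956 as Spearman's rho. The difference RA minus CS in the share of the 100 most abundant genes, not past the threshold, turned from -0.245 to 0.862 percentage points by CPM. By CPM the difference in the number of genes holding 50% went from -6.78 to -71.4 (exact permutation p = 0.0179, adjusted p = 0.0536), that in the lymphatic sum from 2859 TPM to 5859 CPM (exact permutation p = 0.0387, adjusted p = 0.0625) and that in the sum of other cells from -15485 TPM to -6035 CPM (exact permutation p = 0.0119, adjusted p = 0.0536). In TPM the difference in the number of genes ranged from -15.8 to 2.91 when each RA library was left out, the CS libraries being kept, and was above 0 in 1 of these 5 values, that without chronic RA M2. For the time points, edgeR without the filter on low counts called 6 genes, DESeq2 253 and the fit of 5 libraries 42, and 0 were called with size factors, with sex as a covariate and without any 1 RA library. For the sexes, DESeq2 called 78 and the fit of 12 libraries 1, and leaving out each library gave 0 to 6. Outside the alternatives' own construction, the cause of these changes was not tested.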

Other observations

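Of the 5 noncoding features with the most TPM, Malat1, a long nuclear RNA of 6983 exon bases with 6.24% shared windows, was at 743 ± 358 TPM. Gm23935, an annotated miRNA of 57 bases, was at 11794, 14799, 24968, 22995 and 21948 TPM but only 324.6 CPM on average, and all of its windows occur elsewhere. CT010467.1, an annotated rRNA with 69.2% shared windows, was at 815.2 ± 111.6 TPM, and Mir6236 at 1175 ± 230 TPM. Gm28172, an antisense gene of 506 exon bases that lies within the bounds of Prox1 on chromosome 1 of GRCm38 (190168670 to 190169633, against 190118035 to 190170714 for Prox1), was at 2909, 3095, 1288, 1404 and 1917 TPM. It was thus above Prox1 in every RA library and, like Prox1, lower in all chronic than in both acute libraries, and without the strand setting its reads and those of Prox1 cannot be told apart.

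Other families gave values that belong to no comparison. Of 379 solute carrier genes, 24 were at 100 TPM or more and 64 had no count in any RA library, and together they held 1.05 ± 0.01% of the TPM. The highest means were those of Slc31a2, of the copper transporter family, at 799.3 TPM (749.6 to 850.1) and the mitochondrial carrier gene Slc25a5 at 760.3 TPM (621.3 to 912.2), which changed order between libraries. Tetraspanins held 0.695 ± 0.018%, led by Cd9 at 1583 TPM (1463 to 1689), and RAB GTPases 0.426 ± 0.012%, led by Rab2a at 712.3 TPM (685.4 to 735.6). Of 67 replication-dependent histone genes only Hist1h1c reached 100 TPM, at 103.9 TPM (65.4 to 145.4).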
